A study of Homo sapiens with 36 samples.

Results

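A set of 10 genes was examined in BxPC-3 cells, an established human pancreatic adenocarcinoma line. They had been picked for large falls of their RNA with JQ1 or with the compounds labelled TRAP1 or TRAP-1-NegP. The 10 genes, ALKBH4, HCAR1, DOK7, B3GNT7, GIMAP6, GIMAP8, PRICKLE1, ANKRD65, ZMYND8 and SH3TC1, were found by name among 29744 genes in the deposited gene table. Cells received TRAP1, TRAP-1-NegP, JQ1, TRAP-1-NegB or MS78 at 3 µM, or DMSO, the solvent control, for 2 or 4 h, which gave 12 groups of 3 libraries each. All groups shared 1 unmodified cell line grown in RPMI medium with serum, so each result describes 1 line. TRAP1 is here the name of a compound, not of a gene, and the labels do not say what NegP and NegB stand for. The labels do not say whether replicates came from separate cultures, so p-values measure the spread between these libraries, which may be technical.

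The genes had been picked, by no numeric threshold, for large falls against DMSO with TRAP1, TRAP-1-NegP or JQ1 at 2 and 4 h, which makes 6 comparisons. Values in those 6 comparisons are therefore given as a description without a test. Tests are given for TRAP-1-NegB and MS78 against DMSO, for the 3 compounds against each other and for DMSO over time.

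JQ1 occupies the acetyl-lysine pocket of the bromodomains of BET proteins, which tether transcription machinery to acetylated chromatin. Displacing BET proteins from chromatin lowers the transcription of many genes, and mRNAs with short lives show it first. The 10 genes belong to no common pathway. ALKBH4 is an iron- and 2-oxoglutarate-dependent dioxygenase of the AlkB family, and ZMYND8 is a chromatin reader with a bromodomain of its own. HCAR1 is the G-protein-coupled receptor for lactate, and DOK7 is the cytoplasmic adaptor that activates the muscle kinase MuSK. B3GNT7 is an N-acetylglucosaminyltransferase that extends keratan sulfate chains, and PRICKLE1 is a core protein of planar cell polarity. GIMAP6 and GIMAP8 are GTPases of a family known mainly from lymphocytes, SH3TC1 carries SH3 and tetratricopeptide repeat domains, and ANKRD65 carries ankyrin repeats.

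The start regions of 4 genes are shown because they span the range among these genes: a pair of genes read in opposite directions, a start dense in GC boxes, a start with almost no CpG, and the start of a gene that fell late. Each stretch is read on the strand of its gene, 5′ to 3′, and ends at the base before the start of the gene. Capitals mark the GC box (GGGCGG), the CCAAT box (CCAAT), the TATA box (TATAAA) and the AP-1 motif (TGACTCA), each searched on both strands. The sequences are from RefSeq, build GRCh38.p14.
ALKBH4, chr7:102464864-102464983, minus strand, the 120 bases between its start and that of LRWD1: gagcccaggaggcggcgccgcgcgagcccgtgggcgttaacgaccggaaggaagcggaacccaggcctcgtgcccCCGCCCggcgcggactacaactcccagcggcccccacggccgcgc
DOK7, chr4:3463056-3463305, plus strand: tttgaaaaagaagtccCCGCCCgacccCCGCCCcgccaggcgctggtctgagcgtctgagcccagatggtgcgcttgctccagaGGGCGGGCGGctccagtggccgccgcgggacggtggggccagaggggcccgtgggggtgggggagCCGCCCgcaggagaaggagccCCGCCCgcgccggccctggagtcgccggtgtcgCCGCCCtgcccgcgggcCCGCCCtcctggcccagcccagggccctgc
GIMAP6, chr7:150632386-150632635, minus strand: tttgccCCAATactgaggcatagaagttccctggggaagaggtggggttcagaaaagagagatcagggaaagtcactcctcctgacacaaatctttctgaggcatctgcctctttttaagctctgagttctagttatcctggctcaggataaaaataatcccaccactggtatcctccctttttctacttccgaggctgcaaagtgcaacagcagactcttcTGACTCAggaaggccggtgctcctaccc
ZMYND8, chr20:47356700-47356949, minus strand: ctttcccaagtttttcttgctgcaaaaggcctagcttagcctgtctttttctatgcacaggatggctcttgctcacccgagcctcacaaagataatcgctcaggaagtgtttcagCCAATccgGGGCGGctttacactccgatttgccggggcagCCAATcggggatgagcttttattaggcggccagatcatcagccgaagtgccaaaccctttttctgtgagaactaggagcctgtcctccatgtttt

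The 4 stretches had little in common. The DOK7 stretch held 8 GC boxes, some of them overlapping, and 27 CpG in 250 bases. The GIMAP6 stretch held no GC box, 2 CpG, 1 CCAAT box and 1 AP-1 motif. The ZMYND8 stretch held 1 GC box and 2 CCAAT boxes. RefSeq windows of 250 bases before to 50 after a start were matched for 9 of the 10 genes. These 9 genes had 12 windows, of which 8 held a GC box, against 45% of all 35116 windows, and 4 a CCAAT box, against 34.6%. The E-box CACGTG was in 0 of the 12, against 7.26% of all. These matches describe letters only.

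In DMSO the 10 transcripts were of ordinary abundance. On the length-corrected TPM scale their mean levels over the 6 DMSO libraries ordered as GIMAP6 (18.3 TPM), ZMYND8 (17.3), ALKBH4 (16.7), B3GNT7 (12.8), ANKRD65 (8.86), HCAR1 (7.03), DOK7 (6.34), SH3TC1 (5.67), GIMAP8 (4.93) and PRICKLE1 (3.03). The median of all 14988 tested genes was 8.65 TPM. GIMAP6, ZMYND8 and ALKBH4 overlapped in range over the DMSO libraries (16.2 to 20.9, 15.2 to 18.7 and 12.4 to 19.5 TPM). DMSO libraries of PRICKLE1 did not exceed 3.62 TPM and those of GIMAP8 did not fall under 4.28 TPM, so this last pair stayed apart.

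With TRAP1, TRAP-1-NegP and JQ1 all 10 genes were lower than in DMSO at both times, and in each of these 6 comparisons the groups did not overlap for any of the 10. Groups lay fully below DMSO for 23, 22.7 and 22.3% of all tested genes with TRAP1, TRAP-1-NegP and JQ1 at 2 h, and for 26.3, 23.9 and 28.2% at 4 h. Since the genes were picked on these comparisons, nothing is read from the difference. The median log2 change of the 10 genes was -1.64 with TRAP1, -1.64 with TRAP-1-NegP and -1.67 with JQ1 at 2 h. At 4 h it was -3.02 with TRAP1, -2.43 with TRAP-1-NegP and -3.29 with JQ1, beside medians over all tested genes of -0.02, -0.01 and -0.01. The transcripts were lowered rather than lost: of 360 values of the 10 genes in 36 libraries, 1 was a count of 0 and the next lowest was an estimated count of 5. In bulk RNA, fewer expressing cells and less RNA per cell cannot be told apart.

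**Figure D1:**
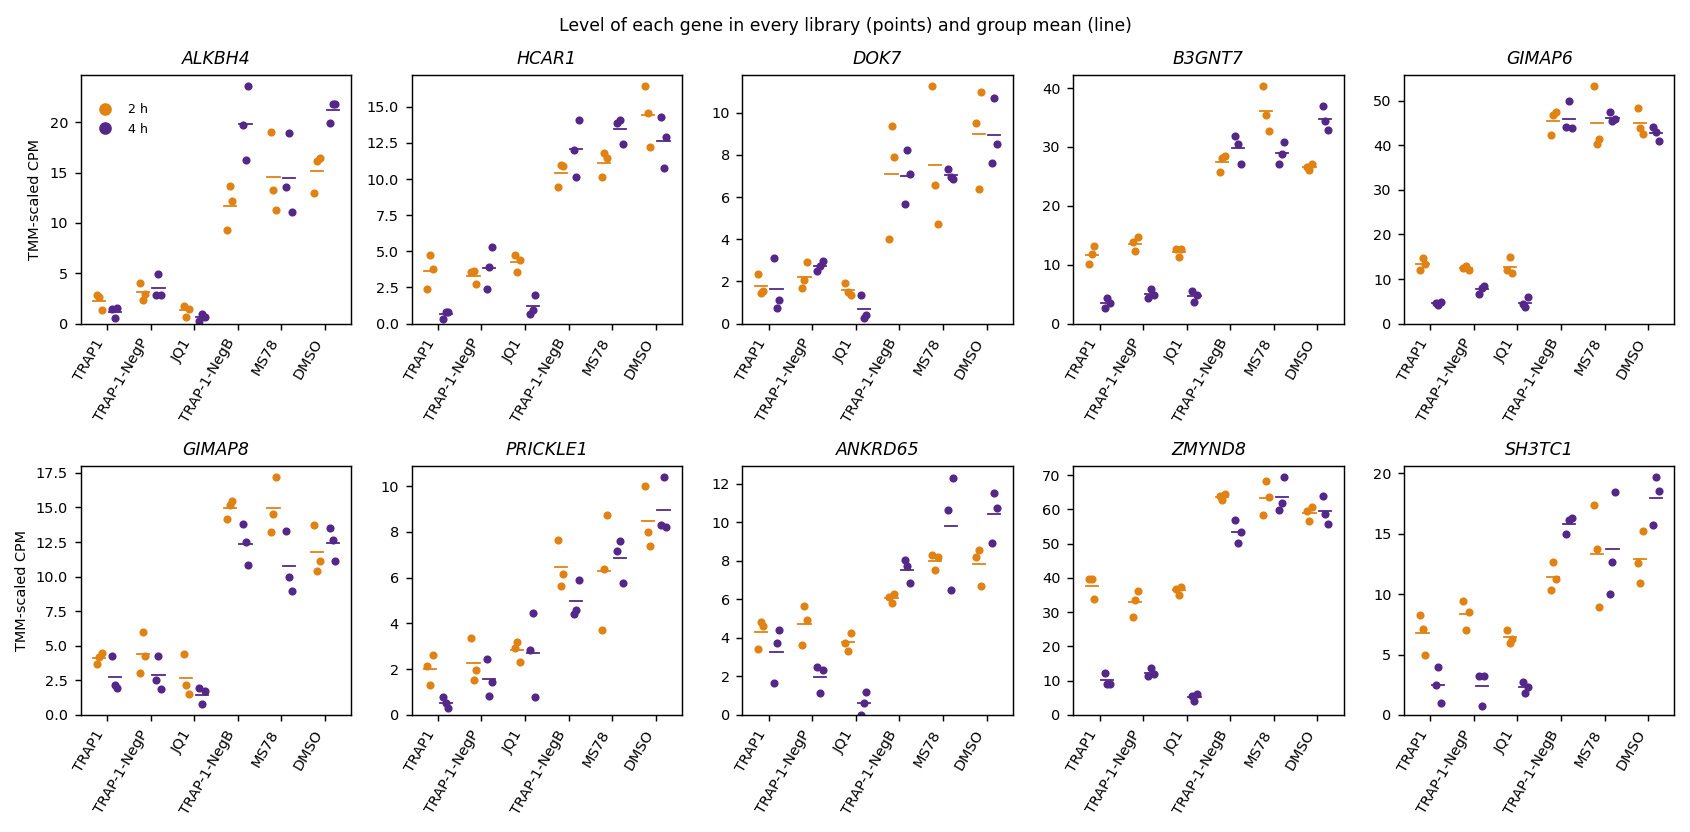
Level of each of the 10 genes in every library, in TMM-scaled CPM, which corrects for library size (y axis from 0), with compounds on the x axis, points for single libraries, lines for means of 3, orange for 2 h and purple for 4 h. For PRICKLE1 and SH3TC1 the 18 libraries with TRAP1, TRAP-1-NegP or JQ1 overlap the other 18. The genes were picked for falls with these compounds, so the separation of the rest is no result.

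ALKBH4 showed the largest fitted fall in these comparisons, with JQ1 at 4 h. At 2 h its libraries held 2.80, 2.64 and 1.37 CPM with TRAP1, 4.06, 2.31 and 2.93 with TRAP-1-NegP, and 1.78, 0.706 and 1.49 with JQ1, against 12.9, 16.2 and 16.5 with DMSO. At 4 h they held 1.41, 0.552 and 1.60 CPM with TRAP1, 2.86, 4.96 and 2.83 with TRAP-1-NegP, and 0.272, 0.97 and 0.649 with JQ1, against 19.9, 21.8 and 21.9 with DMSO. Each of the 9 treated libraries at 4 h was below every DMSO library. The fall at 4 h was 33.0-fold with JQ1 and 5.91-fold with TRAP-1-NegP, the ends of the range.

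ZMYND8, the chromatin reader, was among the slower of the 10 to fall. At 2 h its libraries still held 39.8, 39.7 and 33.8 CPM with TRAP1, 28.5, 33.7 and 36.3 with TRAP-1-NegP, and 36.9, 35.0 and 37.4 with JQ1, against 59.7, 56.7 and 60.7 with DMSO. At 4 h the values were 12.2, 9.06 and 9.14 CPM with TRAP1, 11.4, 13.7 and 12 with TRAP-1-NegP, and 5.60, 3.93 and 6.24 with JQ1, against 63.9, 58.8 and 55.6 with DMSO. At 2 h 55.7 to 63.9% of the DMSO level was left with the 3 compounds, and at 4 h 8.85 to 20.8%. The replicates of this abundant transcript agree closely, and no treated library came near a DMSO library.

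HCAR1, the lactate receptor, had 2.37, 4.77 and 3.79 CPM with TRAP1, 3.58, 3.66 and 2.74 with TRAP-1-NegP, and 4.77, 3.57 and 4.41 with JQ1 at 2 h, against 16.4, 14.6 and 12.2 with DMSO. At 4 h it had 0.291, 0.828 and 0.80 CPM with TRAP1, 2.36, 3.89 and 5.30 with TRAP-1-NegP, and 0.653, 0.919 and 2.00 with JQ1, against 14.3, 10.8 and 12.9 with DMSO. The 3 compounds gave like levels at 2 h, while at 4 h the TRAP-1-NegP libraries stood above all libraries of TRAP1 and JQ1. HCAR1 has 1 annotated transcript in the deposited transcript table, so its level does not depend on how reads were shared among isoforms.

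PRICKLE1, of the planar polarity pathway, was the only one of the 10 with its smallest 4-h fall under JQ1. Its libraries at 4 h held 0.777, 0.506 and 0.286 CPM with TRAP1, 2.46, 0.849 and 1.44 with TRAP-1-NegP, and 2.83, 4.44 and 0.798 with JQ1, against 8.29, 10.4 and 8.20 with DMSO. The JQ1 replicates spread more than 5-fold, with 1 library close to the TRAP1 level. At 2 h PRICKLE1 kept 24.1 to 33.4% of its DMSO level with the 3 compounds.

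ANKRD65 had the opposite order at 4 h, with 1.65, 3.73 and 4.40 CPM with TRAP1, 2.46, 1.16 and 2.35 with TRAP-1-NegP, and 0, 0.613 and 1.20 with JQ1, against 8.93, 11.5 and 10.7 with DMSO. The JQ1 libraries rest on estimated counts of 0, 12 and 24, so the fitted JQ1 fold of this gene depends on few reads. At 2 h ANKRD65 kept 48.1 to 60.5% of its DMSO level.

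DOK7, the MuSK adaptor, had 3.11, 0.736 and 1.14 CPM with TRAP1, 2.51, 2.73 and 2.95 with TRAP-1-NegP, and 1.36, 0.255 and 0.399 with JQ1 at 4 h, against 7.60, 10.7 and 8.49 with DMSO. TRAP1 replicate 1 was the highest of the 3 TRAP1 libraries at 4 h for both DOK7 and GIMAP8, and it holds 1287 tested genes at 0. GIMAP8 had 4.23, 2.16 and 1.94 CPM with TRAP1, 2.51, 4.29 and 1.87 with TRAP-1-NegP, and 1.96, 0.766 and 1.70 with JQ1, against 13.5, 12.6 and 11.1 with DMSO.

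Both GIMAP6 and B3GNT7 fell evenly across replicates. GIMAP6 had 4.66, 4.19 and 4.92 CPM with TRAP1, 6.63, 8.0 and 8.55 with TRAP-1-NegP, and 4.46, 3.68 and 5.89 with JQ1 at 4 h, against 44.2, 43.0 and 41.0 with DMSO. The TRAP1 and JQ1 libraries overlapped each other, and all lay below those with TRAP-1-NegP. B3GNT7 ran from 2.62 to 5.81 CPM over the 9 treated libraries at 4 h and from 10.1 to 14.7 at 2 h, against 26.0 to 36.9 in the DMSO libraries of both times. SH3TC1 ran from 0.759 to 3.96 CPM in the 9 treated libraries at 4 h and from 4.93 to 9.43 at 2 h, against 10.9 to 19.7 with DMSO, and its 4-h changes with the 3 compounds were within -2.98 and -2.83 on the log2 scale.

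**Figure D2:**
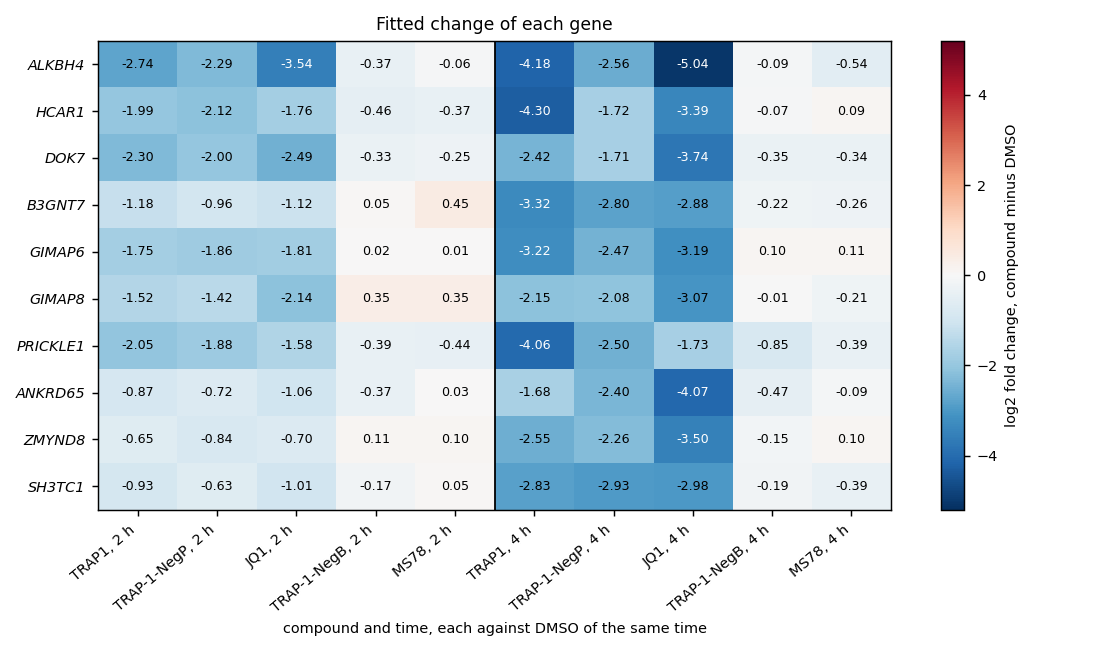
Fitted log2 change of each gene (rows) with each compound against DMSO of the same time (columns, 2 h left of the line and 4 h right of it); the colour and the printed number both give the change. The TRAP1, TRAP-1-NegP and JQ1 columns run from -0.63 to -5.04, and the TRAP-1-NegB and MS78 columns from -0.85 to 0.45.

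The genes reached their 4-h level at different paces. The log2 change at 2 h as a share of that at 4 h was 19.9 to 37.3% for ZMYND8 over the 3 compounds, 21.4 to 33.8% for SH3TC1, 34.4 to 38.9% for B3GNT7 and 25.9 to 52.1% for ANKRD65. It was 65.6 to 89.4% for ALKBH4, 66.6 to 117% for DOK7, 68.0 to 70.5% for GIMAP8 and 54.4 to 75.4% for GIMAP6. For PRICKLE1 the share ran from 50.6 to 91.1% and for HCAR1 from 46.3 to 123%. A share above 100% means that the change was larger at 2 h: this was so with TRAP-1-NegP for DOK7 and HCAR1. These shares are descriptions, since both changes belong to comparisons on which the genes were picked.

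Neither TRAP-1-NegB nor MS78 lowered any of the 10 genes past the threshold (edgeR quasi-likelihood test, Benjamini-Hochberg adjusted p under 0.05 over 14988 genes). At an unadjusted p under 0.05, 0 of the 10 were lower with TRAP-1-NegB at 2 h and 1, PRICKLE1, at 4 h, and with MS78 0 were lower at 2 h and 1, ALKBH4, at 4 h. DESeq2 also called 0 of the 10 lower in each of these 4 comparisons. Calls were made for 10.9% of all tested genes with TRAP-1-NegB and 15.9% with MS78 (8.3% higher) at 2 h, and for 1.03% and 15.3% at 4 h. Called lower were 5.87 and 7.65% of all tested genes at 2 h, and 0.2 and 9.05% at 4 h. A count of 0 of 10 is near those shares. These comparisons share their DMSO libraries with those on which the genes were picked. The median log2 change of the 10 genes was -0.25 with TRAP-1-NegB and 0.02 with MS78 at 2 h, and -0.17 with TRAP-1-NegB and -0.24 with MS78 at 4 h. Changes were below 0 for 6 and 4 of the 10 at 2 h, and for 9 and 7 at 4 h. At 2 h 2 and 1 of the 10 lay fully below DMSO (16.7 and 13.3% of all tested genes). As many lay fully above it (14.8 and 12.3%). At 4 h 3 and 4 lay fully below DMSO (8.09 and 18%) and 0 and 1 fully above (8.51 and 15.8%). The lowest 95% bound was -1.55, for PRICKLE1 with TRAP-1-NegB at 4 h. Its libraries held 4.43, 4.61 and 5.89 CPM, against 8.29, 10.4 and 8.20 with DMSO (log2 change -0.85, SE 0.35, edgeR adjusted p = 0.376). Fitted changes with JQ1 ran from -0.70 to -3.54 at 2 h and from -1.73 to -5.04 at 4 h. The genes were picked on these JQ1 falls, which are given without intervals, so they are not set against that bound. When only the groups compared were fitted, PRICKLE1 passed with TRAP-1-NegB at 4 h (-0.84, edgeR adjusted p = 0.0385). HCAR1 also passed with TRAP-1-NegB at 2 h (-0.45, edgeR adjusted p = 0.0242), and ALKBH4 with MS78 at 4 h (-0.53, edgeR adjusted p = 0.0126). For GIMAP6 at 4 h the interval was -0.13 to 0.34 with TRAP-1-NegB and -0.12 to 0.35 with MS78.

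B3GNT7 was the only one of the 10 called with either compound, and it was higher. It had 40.4, 35.4 and 32.6 CPM with MS78 at 2 h, against 26.5, 26.0 and 27.2 with DMSO, a log2 change of 0.45 (SE 0.13, edgeR adjusted p = 0.0149) in 3 of 3 libraries. MS78 replicate 1 at 2 h stands apart from its group, with a chi-square per degree of freedom up to 46.4 against its replicates, where pairs in other groups gave 4.55 to 15.5. Without it the change was 0.36 and was not called (edgeR adjusted p = 0.111), nor was it when only the groups compared were fitted (0.44, edgeR adjusted p = 0.0751). At 4 h B3GNT7 had 27.2, 28.8 and 30.9 CPM with MS78, against 36.9, 34.4 and 32.9 with DMSO (log2 change -0.26, edgeR adjusted p = 0.187).

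Among DMSO libraries alone, the 4-h level differed from the 2-h level for 20.8% of all tested genes (11.4% higher) and for 1 of the 10, B3GNT7. It had 36.9, 34.4 and 32.9 CPM at 4 h, against 26.5, 26.0 and 27.2 at 2 h, a log2 difference of 0.39 (SE 0.13, edgeR adjusted p = 0.0302). The call was lost without any 1 of the 6 DMSO libraries, with differences of 0.32 to 0.41, and without a count filter (0.36, edgeR adjusted p = 0.0676). When only the DMSO groups were fitted, ALKBH4 (0.47, edgeR adjusted p = 0.00677) and SH3TC1 (0.47, adjusted p = 0.0164) also passed. The other 9 differences ran from -0.19 to 0.48 and were not called.

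The compounds were next compared directly, in 3 pairs at each of 2 times, at the same dose. The genes were picked for falls in these same libraries, although not on these differences. A pick on a large fall with any 1 of the compounds can still bear on the differences between them. At 2 h few differences among the 10 genes were called. Calls were made for 0.801% of all tested genes for TRAP1 against TRAP-1-NegP, 1.99% for TRAP1 against JQ1 and 12.9% for JQ1 against TRAP-1-NegP (7.26% lower), and for 0, 0 and 1 of the 10. At an unadjusted p under 0.05 the counts were 0, 2 and 2, and DESeq2 called 0, 0 and 1. Over all tested genes the number called for TRAP1 against TRAP-1-NegP and TRAP1 against JQ1 was 120 and 298, but 251 and 555 with DESeq2, and 1112 and 1036 when only the groups compared were fitted. The 1 call was ALKBH4, lower with JQ1 than with TRAP-1-NegP (log2 difference -1.25, SE 0.35, edgeR adjusted p = 0.0124), and it was lost without JQ1 replicate 2 (-0.92) or TRAP-1-NegP replicate 1 (-1.02). GIMAP8 was called lower with JQ1 without JQ1 replicate 1 (-1.26, edgeR adjusted p = 0.0096). For GIMAP6 the 95% intervals of the 3 differences at 2 h all lay within -0.22 and 0.38, and for ZMYND8 within -0.16 and 0.42. Intervals were wider for low genes, for example -1.12 to 0.51 for DOK7 between TRAP1 and TRAP-1-NegP.

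At 4 h the compounds separated. TRAP1 against TRAP-1-NegP gave calls for 15.3% of all tested genes (8.09% lower) and for 5 of the 10, all lower with TRAP1. HCAR1 differed most (log2 difference -2.58, SE 0.33, edgeR adjusted p = 2.82e-08), with every TRAP1 library under 1 CPM and every TRAP-1-NegP library above 2. ALKBH4 (-1.61, adjusted p = 0.000911) and GIMAP6 (-0.75, adjusted p = 0.000221) were also lower in all 3 TRAP1 libraries than in any with TRAP-1-NegP. PRICKLE1 (-1.56, adjusted p = 0.0139) and B3GNT7 (-0.52, adjusted p = 0.0308) were called as well, PRICKLE1 without and B3GNT7 with overlap of the groups. The PRICKLE1 call was lost without TRAP-1-NegP replicate 1 (-1.08), TRAP1 replicate 2 (-1.53) or TRAP1 replicate 3 (-1.30). The B3GNT7 call was lost without TRAP-1-NegP replicate 2 (-0.39) or 3 (-0.54) or TRAP1 replicate 1 (-0.35) or 3 (-0.52). When only the groups compared were fitted, HCAR1 and ALKBH4 stayed called, and GIMAP6 (edgeR adjusted p = 0.0729), PRICKLE1 (0.26) and B3GNT7 (0.406) did not pass. Without TRAP1 replicate 1, DOK7 (-1.55, edgeR adjusted p = 0.0114) and ZMYND8 (-0.44, adjusted p = 0.025) were called too.

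JQ1 against TRAP-1-NegP at 4 h gave calls for 25.7% of all tested genes (12.9% lower) and for 7 of the 10, all lower with JQ1. These were ALKBH4 (-2.48, edgeR adjusted p = 7.07e-06), DOK7 (-2.03, adjusted p = 0.000702), HCAR1 (-1.67, adjusted p = 3.56e-05), ANKRD65 (-1.67, adjusted p = 0.00354), ZMYND8 (-1.23, adjusted p = 1.1e-09), GIMAP8 (-0.99, adjusted p = 0.0246) and GIMAP6 (-0.72, adjusted p = 0.00029). ZMYND8, with 5.26 ± 1.19 CPM with JQ1 and 12.3 ± 1.22 CPM with TRAP-1-NegP (SD, n = 3 libraries each), was the most precisely measured of them. Without 1 library the ANKRD65 difference ran from -2.63 (without JQ1 replicate 3) to -1.12 (without JQ1 replicate 1) and that of DOK7 from -3.03 (without JQ1 replicate 1) to -1.64 (without JQ1 replicate 2), all still called. The GIMAP8 call was lost without JQ1 replicate 2 (-0.68) or TRAP-1-NegP replicate 2 (-0.57). GIMAP8 (edgeR adjusted p = 0.116) and ANKRD65 (0.0784) did not pass when only the groups compared were fitted. B3GNT7, PRICKLE1 and SH3TC1 were not called, with intervals of -0.41 to 0.26, -0.02 to 1.55 and -0.83 to 0.73. Without JQ1 replicate 3, the low PRICKLE1 library, PRICKLE1 was called higher with JQ1 (1.20, edgeR adjusted p = 0.0132), as it was without TRAP-1-NegP replicate 1 (1.25, adjusted p = 0.0402).

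TRAP1 and JQ1 differed at 4 h in both directions. Calls were made for 27.4% of all tested genes (14.9% lower and 12.5% higher with TRAP1) and for 5 of the 10. PRICKLE1 was lower with TRAP1 (log2 difference -2.33, SE 0.44, edgeR adjusted p = 5.84e-05). ANKRD65 was higher with TRAP1 (2.39, SE 0.42, adjusted p = 2.09e-05), as was ZMYND8 (0.95, SE 0.14, adjusted p = 2.96e-07), both with no overlap. DOK7 (1.32, adjusted p = 0.0285) and GIMAP8 (0.92, adjusted p = 0.0358) were also higher with TRAP1, with overlapping libraries. Without TRAP1 replicate 1 the difference was 0.50 for each and neither was called, without JQ1 replicate 1 that of DOK7 was 2.32, and the DOK7 call was also lost without JQ1 replicate 2 (0.94) or 3 (1.06) and the GIMAP8 call without JQ1 replicate 2 (0.61). Neither passed when only the groups compared were fitted (edgeR adjusted p = 0.265 for DOK7 and 0.232 for GIMAP8). B3GNT7 was called lower with TRAP1 without JQ1 replicate 2 (-0.59) or TRAP1 replicate 2 (-0.63), and ALKBH4 higher with TRAP1 without TRAP1 replicate 2 (1.24). When p-values were adjusted over the 6 pair comparisons together, the GIMAP8 call was lost (adjusted p = 0.0616) and no other call of the 10 genes changed in that adjustment. GIMAP6 (95% interval -0.35 to 0.29) and SH3TC1 (-0.62 to 0.92) were not called between TRAP1 and JQ1. SH3TC1 was called in none of the 6 pair comparisons. HCAR1 between TRAP1 and JQ1 at 4 h (-0.91, edgeR adjusted p = 0.0605) passed without JQ1 replicate 1 (-1.19) or 2 (-1.07) or TRAP1 replicate 2 (-1.16).

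**Figure D3:**
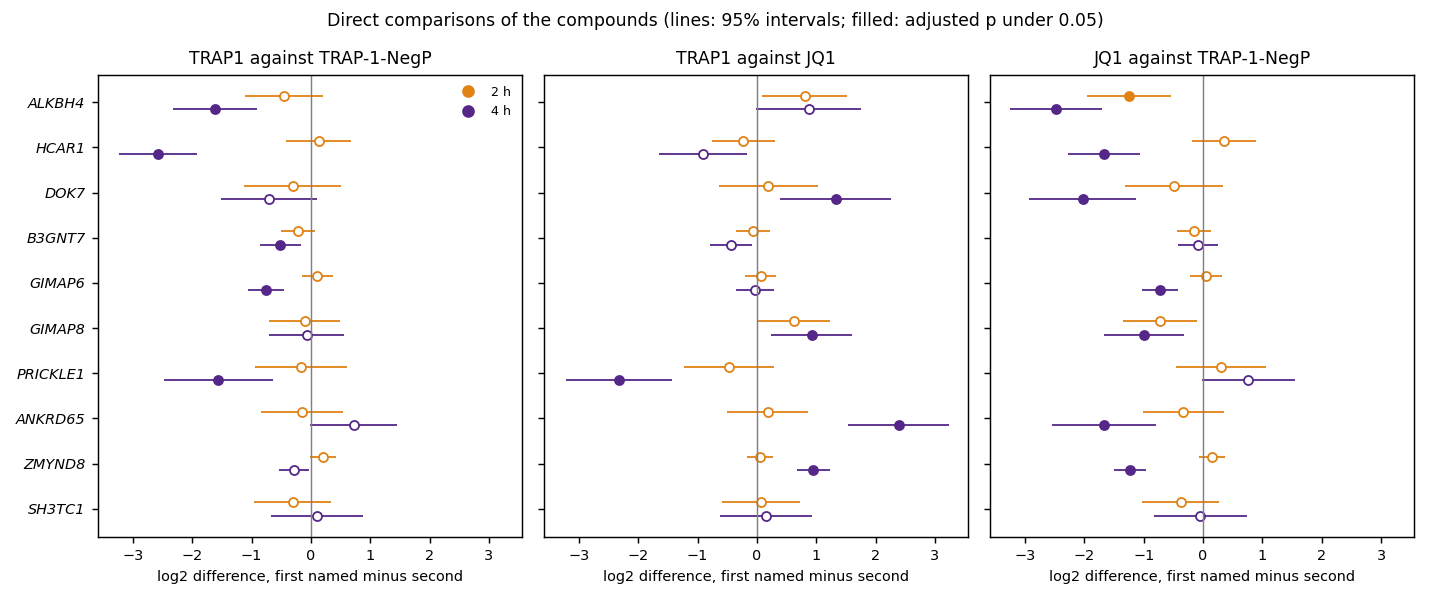
Log2 difference of each gene between pairs of compounds (x axis, compound named first minus compound named second) at 2 h (orange) and 4 h (purple), with 95% intervals; filled points passed edgeR's adjusted p of 0.05. At 2 h 1 of 30 points is filled, and at 4 h HCAR1 between TRAP1 and TRAP-1-NegP (-2.58) is the lowest point and ANKRD65 between TRAP1 and JQ1 (2.39) the highest.

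Relatives of the 10 genes, 57 tested genes in 8 lists chosen by family or pathway, moved in both directions. Of these 57, 12 were called higher and 27 lower with TRAP1 at 4 h, 11 and 17 with TRAP-1-NegP, and 16 and 29 with JQ1. Over all tested genes 46.7% were called with TRAP1, 37.4% with TRAP-1-NegP and 48.9% with JQ1 at 4 h in either direction. By direction 22.2% were called higher and 24.5% lower with TRAP1 at 4 h, 18.6% and 18.9% with TRAP-1-NegP, and 24.3% and 24.6% with JQ1. At 2 h the counts were 6 higher and 14 lower with TRAP1, 6 and 12 with TRAP-1-NegP, and 10 and 12 with JQ1, where 30.1, 30.3 and 28.8% of all tested genes were called in either direction. Over all tested genes 15.7% were called higher and 14.3% lower with TRAP1 at 2 h, 16.4% and 13.9% with TRAP-1-NegP, and 14.8% and 13.9% with JQ1. More relatives were called lower than higher with each of these compounds at both times, and this lean was not tested.

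The GIMAP genes lie side by side on chromosome 7, and none of the other 5 tested members of the family was called higher with the 3 compounds. At 4 h 4 of 5 were called lower with TRAP1, 2 with TRAP-1-NegP and 4 with JQ1. GIMAP2 fell in all 6 comparisons, to 1.19 CPM with TRAP1, 0.646 with TRAP-1-NegP and 1.33 with JQ1 at 4 h, against 6.66 with DMSO (log2 changes -2.46, -3.40 and -2.33, highest edgeR adjusted p = 6.58e-07). The GIMAP2 call at 2 h was lost with JQ1 without JQ1 replicate 3 (-1.01), and with TRAP-1-NegP without DMSO replicate 1 (-0.90) or 2 (-0.89) or TRAP-1-NegP replicate 3 (-0.80). GIMAP4 was at 21.1, 21.7 and 21.9 CPM with TRAP1, TRAP-1-NegP and JQ1 at 2 h, against 26.4 with DMSO, and was not called there. At 4 h GIMAP4 fell to 6.28, 8.35 and 6.42 CPM, against 24.0 with DMSO (log2 changes -1.94, -1.53 and -1.90). GIMAP7 and GIMAP1 were at or under 0.207 CPM in DMSO, and GIMAP7 counts among the 4-h calls with TRAP1 and JQ1 on that level. These GIMAP7 calls were lost without DMSO replicate 1 (-3.78 for each) or without any 1 of the 3 libraries of the compound. Paralogs of this family share sequence, so reads could be split between them in the authors' counting. The 8 lymphoid and myeloid markers summed at 4 h to 3.55 to 4.57 TPM with TRAP1, 3.10 to 5.52 with TRAP-1-NegP and 2.55 to 3.98 with JQ1, against 5.17 to 6.41 with DMSO, so that TRAP1 and JQ1 lay fully below DMSO. At 2 h they summed to 5.12 to 5.32 TPM with TRAP1, 3.94 to 6.30 with TRAP-1-NegP and 3.46 to 4.83 with JQ1, against 3.74 to 6.07 with DMSO, and each group overlapped DMSO. CD2 and MS4A1 were at 0 in all 36 libraries. The 4 endothelial markers lay fully below DMSO at 4 h with all 3 compounds, at 1.04 to 1.62 TPM with TRAP1, 0.937 to 1.96 with TRAP-1-NegP and 1.65 to 2.20 with JQ1, against 2.35 to 3.40 with DMSO. At 2 h they were at 2.35 to 3.00 TPM with TRAP1, 1.78 to 2.82 with TRAP-1-NegP and 2.87 to 2.89 with JQ1, against 2.51 to 3.52 with DMSO, and each group overlapped DMSO. The 4 fibroblast markers summed to 1.78 to 3.34 TPM over all libraries with the 3 compounds, against 1.71 to 1.88 TPM with DMSO at 2 h and 1.83 to 2.47 at 4 h. At 2 h all 3 compounds lay fully above DMSO in this sum, and at 4 h all 3 overlapped it. TRAP-1-NegB (2.38 to 3.24 TPM) and MS78 (2.39 to 2.78) also lay fully above DMSO at 2 h, so this was not particular to the 3 compounds. Ductal and epithelial markers summed at 4 h to 11387 to 11626 TPM with TRAP1, 9893 to 10021 with TRAP-1-NegP and 8963 to 9590 with JQ1, against 9958 to 10814 with DMSO. At 2 h they summed to 10224 to 10676 TPM with TRAP1, 10393 to 10625.5 with TRAP-1-NegP and 9433 to 9825 with JQ1. All lay fully above the 8770 to 8836 TPM with DMSO, as did TRAP-1-NegB (9418 to 10100 TPM) and MS78 (9529 to 11220 TPM) at 2 h. Only 1 of the 8 lymphoid and myeloid markers had a median of 1 TPM or more (CD14, 2.49). The same held for 1 of the 4 endothelial (CDH5, 2.21) and 1 of the 4 fibroblast markers (COL1A1, 1.65). These 3 sums are thus low and rest largely on 1 gene each. The part of these markers in the results was not tested.

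HCAR3, the neighbouring receptor of HCAR1, was called lower with all 3 compounds at 4 h, with log2 changes of -0.78 with TRAP1, -0.84 with TRAP-1-NegP and -1.01 with JQ1. The calls with TRAP1 and TRAP-1-NegP were lost without a count filter (edgeR adjusted p = 0.0649 and 0.0536), and that with TRAP1 also with DESeq2 size factors (0.0539) and with only the groups compared (0.084). Without DMSO replicate 1 or 3 the change was -0.74 or -0.72 with TRAP1 and -0.79 or -0.77 with TRAP-1-NegP, and was not called. The call was also lost without TRAP1 replicate 1 (-0.59) or 3 (-0.63), without TRAP-1-NegP replicate 1 (-0.92), 2 (-0.84) or 3 (-0.76), and without JQ1 replicate 1 (-0.87) or 3 (-0.68). Its closest copy HCAR2 shares most of its sequence, so the split of reads between them is uncertain. In the planar polarity list of 13, 7 were called lower and 2 higher with TRAP1 at 4 h, 4 and 0 with TRAP-1-NegP, and 8 and 4 with JQ1. VANGL1, a membrane protein of the pathway, and DVL1, a dishevelled adaptor, fell in all 6 comparisons. VANGL1 was at 24.4 CPM with TRAP1, 49.2 with TRAP-1-NegP and 40.4 with JQ1 at 4 h, against 73.6 with DMSO. DVL1 was at 83.2, 105 and 82.8 CPM, against 179 with DMSO.

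Relatives of B3GNT7 split: of 9 tested, 3 were called higher and 4 lower with TRAP1 at 4 h, 3 and 2 with TRAP-1-NegP, and 4 and 4 with JQ1. B3GNT5, which starts lacto-series glycolipids, fell in all 6 comparisons (log2 changes of -0.33 to -1.23), and B3GNT9 fell at 4 h (-1.63 with TRAP1, -1.20 with TRAP-1-NegP and -1.33 with JQ1). With JQ1 at 4 h the B3GNT5 call was lost in DESeq2 (adjusted p = 0.0529) and without DMSO replicate 1 (-0.25) or 3 (-0.34) or JQ1 replicate 1 (-0.34) or 3 (-0.27). B3GNT2, which extends polylactosamine, rose at 4 h to 35.3 CPM with TRAP1, 29.5 with TRAP-1-NegP and 54.1 with JQ1, against 16.5 with DMSO. B3GNT4 (log2 changes 2.11, 2.31 and 2.17) and the galactosyltransferase B4GALT4 (0.77, 0.43 and 0.79) rose at 4 h as well. DOK1, a docking adaptor of the DOK7 family, fell in all 6 comparisons, to 11.1 CPM with TRAP1, 15.9 with TRAP-1-NegP and 11.5 with JQ1 at 4 h, against 28.4 with DMSO. In the list of 6 DOK adaptors and MuSK signalling genes, 3 were called higher and 1 lower with TRAP1 at 4 h, 1 and 1 with TRAP-1-NegP, and 3 and 1 with JQ1. SH3TC2, the closest relative of SH3TC1, fell at 4 h (-1.57, -1.05 and -1.30). Of 8 relatives of ALKBH4, the ALKBH and FTO dioxygenases, 0 were called higher and 5 lower with TRAP1 at 4 h, 1 and 4 with TRAP-1-NegP, and 1 and 6 with JQ1.

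Of 13 genes whose proteins work with ZMYND8 or read acetyl-lysine, 4 were called higher and 3 lower with TRAP1 at 4 h, 6 and 1 with TRAP-1-NegP, and 4 and 3 with JQ1. CHD4, the remodeller of the NuRD complex, and the deacetylases HDAC1 and HDAC2 rose in all 6 comparisons by small amounts, 0.21 to 0.32, 0.15 to 0.34 and 0.20 to 0.43 on the log2 scale. Without a count filter HDAC1 was not called with TRAP-1-NegP at 2 h (edgeR adjusted p = 0.0632) or JQ1 at 4 h (0.0777), nor at 2 h with TRAP-1-NegP without DMSO replicate 3 (0.13). The HDAC2 call with TRAP-1-NegP at 4 h was lost without DMSO replicate 2 (0.19) or 3 (0.19) or TRAP-1-NegP replicate 2 (0.20) or 3 (0.19). RCOR1, a corepressor, rose at 4 h (0.69 with TRAP1, 0.65 with TRAP-1-NegP and 1.15 with JQ1), and the zinc finger gene ZNF532 fell at 4 h (-0.71, -0.84 and -0.63). BRD2, which encodes a BET protein, rose in all 6 comparisons, to 672 CPM with TRAP1, 627 with TRAP-1-NegP and 676 with JQ1 at 4 h, against 197 with DMSO.

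The nearest tested protein-coding gene on each side of each of the 10 gave 16 genes outside the lists. With TRAP1 at 4 h 5 of the 16 were called higher and 3 lower, with TRAP-1-NegP 4 and 1, and with JQ1 4 and 5. Over all tested genes 22.2% were called higher and 24.5% lower with TRAP1 at 4 h. These shares were 18.6 and 18.9% with TRAP-1-NegP, and 24.3 and 24.6% with JQ1. With only 16 genes, nothing is read from the differences. LRWD1 starts 120 bases from ALKBH4 and is read the other way, so the stretch printed for ALKBH4 is upstream of both. LRWD1 was at 74.6 CPM with TRAP1, 76.3 with TRAP-1-NegP and 73.8 with JQ1 at 4 h, against 60.8 with DMSO (log2 changes 0.30, 0.33 and 0.28, edgeR adjusted p = 0.015, 0.0089 and 0.02), while ALKBH4 changed by -4.18, -2.56 and -5.04. The LRWD1 call with TRAP1 was lost without DMSO replicate 1 (0.27) or TRAP1 replicate 2 (0.21) or 3 (0.25), and that with JQ1 without JQ1 replicate 3 (0.19). On its other side ALKBH4 overlaps ORAI2 by 588 bases, and whether counting used strand is not given, so reads there could belong to either. ORAI2 was at 8.04 CPM with TRAP1 at 4 h, against 14.4 with DMSO (log2 change -0.85, edgeR adjusted p = 5.2e-06), and was not called with TRAP-1-NegP or JQ1 at that time.

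Other neighbours moved in both directions, as did all tested genes. LRPAP1, beside DOK7, and NCL, which encodes nucleolin and lies beside B3GNT7, rose in all 6 comparisons, although without JQ1 replicate 3 LRPAP1 was not called with JQ1 at 2 h (0.23). NCL was at 1249 CPM with TRAP1, 1064 with TRAP-1-NegP and 1382 with JQ1 at 4 h, against 865 with DMSO. RGS12, on the other side of DOK7, rose with TRAP1 at 4 h (1.13) and fell with TRAP-1-NegP (-0.69) and JQ1 (-1.25). NCOA3, the nearest tested gene above ZMYND8, was called lower with all 3 compounds at 2 h (-0.51, -0.70 and -0.38) and higher with all 3 at 4 h (0.29, 0.35 and 0.57). The NCOA3 call with TRAP1 at 4 h was lost without DMSO replicate 2 (0.19) or 3 (0.21) or TRAP1 replicate 1 (0.23). AFAP1, beside SH3TC1, was at 22.6 CPM with TRAP1 at 4 h, against 34.7 with DMSO (-0.62), and LOC728743, beside GIMAP8, at 0.379 CPM, against 2.11 with DMSO (-2.45).

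**Figure D4:**
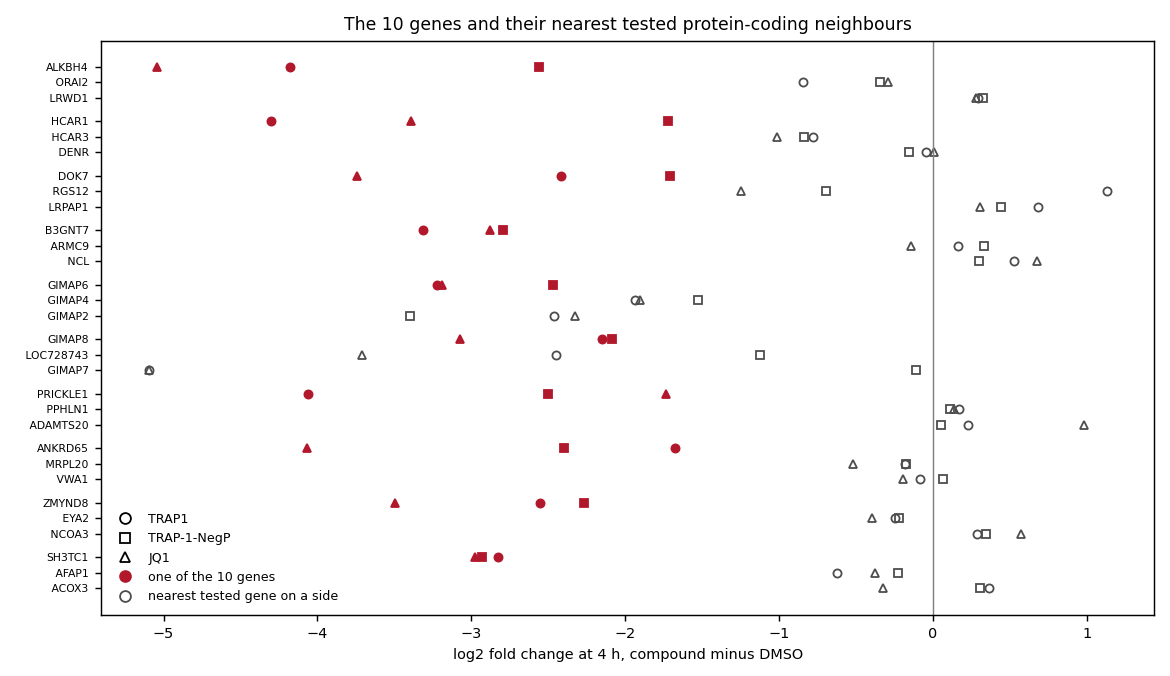
Log2 change at 4 h against DMSO (x axis) of the 10 genes (red, filled) and, under each, its nearest tested protein-coding neighbours (grey, open), with circles for TRAP1, squares for TRAP-1-NegP and triangles for JQ1. Red marks lie from -1.68 to -5.04, while neighbours outside the GIMAP cluster and LOC728743 lie between -1.25 and 1.13; GIMAP7, at -5.09, was at 0.201 CPM in DMSO and 0 with TRAP1 and JQ1, so its fitted change is no bound.

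Some genes outside the 10 had a profile of nearly the same shape, though not always of the same depth. Over the 12 group means of log2 CPM, TFAP4, which encodes the AP-4 transcription factor, had a Pearson r of 0.997 with the mean of the standardized profiles of the 10. YARS2, the mitochondrial tyrosyl-tRNA synthetase, and FAM53B had 0.993, the zinc finger gene ZFP64 had 0.992 and RAI1 had 0.991. These were the 5 highest of all tested genes, and the r values are descriptions over groups that share libraries and DMSO. TFAP4 changed by -2.76 with TRAP1, -2.29 with TRAP-1-NegP and -3.14 with JQ1 at 4 h, and ZFP64 by -3.06, -2.40 and -2.87. The falls were smaller for YARS2 (-1.57, -1.32 and -1.83), FAM53B (-1.12, -0.83 and -1.18) and RAI1 (-1.09, -0.81 and -1.14). Within the 10, the r of each gene with the mean of the others ran from 0.859 for ANKRD65 and 0.865 for PRICKLE1 to 0.991 for GIMAP6. The 10 were picked for falls in the same groups, so a high r among them follows from that choice and is no result.

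Transcript shares in the deposited TPM table differed between genes. In DMSO 98.8% of GIMAP8 came from 1 of its 4 annotated transcripts and 84.1% of ANKRD65 from 1 of 5. ALKBH4 had 50.8% in its main and 41.8% in its next transcript in DMSO; with the 3 compounds at 4 h those shares were 18.5% and 78.9%, out of a summed level lower than in DMSO. ZMYND8 has 38 annotated transcripts, of which 14 were above 0 in DMSO. Shares over so few reads rest on Salmon's estimates and were not tested.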

How the data were processed

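RNA of BxPC-3 cells was measured by polyA-selected, paired-end sequencing with 150-base reads, in 36 libraries of 12 groups. Per the submitters' processing notes, the authors quantified reads against hg38 with Salmon 1.10.3 in nf-core/rnaseq 3.18.0; neither the annotation release nor the use of strand is given in the sources used here. Gene values were deposited as estimated counts, without scaling for depth, and gene and transcript levels also as TPM, which the authors' pipeline scales by transcript length and library size. A library held between 15288688 and 26608325 estimated counts.

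Estimated counts were rounded and fitted in R 4.3.3 with edgeR 4.0.16, which with limma 3.58.1 made 1 quasi-likelihood fit of all 12 groups (TMM scaling, filterByExpr with a minimum count of 10). The fit kept 14988 of 29744 genes and all 10 members; a gene low with 3 compounds could pass through the other groups, so passing is no result. P-values were adjusted by Benjamini-Hochberg over all tested genes per comparison; a gene was called when its adjusted p was below 0.05. CPM values are TMM-scaled. Intervals are 95% and come from the same fit, and their coverage was not tested. Calls were tested on simulated counts, for TRAP1 against TRAP-1-NegP at 4 h. The spread was the trend of this fit over abundance, not the spread of each gene. Changes were put only into genes with a mean of 1 CPM or more with TRAP-1-NegP at 4 h, so recovery below that level is not covered. Of 100 changes of 3-fold 92% were called, and of 100 changes of 1.5-fold 59%, with 9 calls among unchanged genes. Small differences can thus be missed. The members and all gene lists were chosen with earlier results of these data known. Named relatives and neighbours are those called with 1 sign in all 6 comparisons of TRAP1, TRAP-1-NegP and JQ1 with DMSO, and otherwise up to 4 per direction by adjusted p with TRAP1 at 4 h; BRD2, HCAR3, GIMAP1 and GIMAP7 were named after their values were seen. Neighbours were taken from RefSeq positions (GRCh38.p14), found for 13282 of the tested genes (88.6%), so a nearer gene without a position could be missed. No pair of libraries was identical. Same-numbered replicates did not deviate together (correlations of -0.046 to 0.064 in 17 comparisons), so numbers were not used to pair libraries. DESeq2 1.42.0, Python 3.11.15 and matplotlib 3.10.9 served for alternatives and plots. Alternatives were DESeq2 size factors, the DESeq2 Wald test, no count filter, a stricter one, length-scaled counts (a deposited table of estimated counts), a replicate term, fits of only the groups compared, and leaving out each library.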

Additional observations from a re-analysis of the deposited data

Results flagged for a closer look

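For the genes named here, the effect of a compound at 4 h minus its effect at 2 h was tested within the same fit (edgeR, adjusted over all tested genes). For the 10 members this was tested only with TRAP-1-NegB and MS78, since they had been picked on the other comparisons. The relatives and neighbours had been named by their calls with TRAP1, TRAP-1-NegP and JQ1, many by TRAP1 at 4 h, and BRD2 after its values were seen. Their differences with these compounds reuse values that served to name them, so those p-values are descriptions only.

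Of the members, B3GNT7 passed: the MS78 effect was 0.709 lower on the log2 scale at 4 h than at 2 h, a difference of -0.709 (SE 0.189, edgeR adjusted p = 0.00697), with the library that stands apart included.

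With MS78, the other differences that passed were -0.645 for DOK1, 0.399 for VANGL1, 0.356 for RCOR1, -0.240 for CHD4, -0.420 for LRWD1, -0.677 for RGS12, -0.426 for LRPAP1, -0.226 for NCL and 0.537 for NCOA3. With TRAP-1-NegB, NCL passed at -0.311.

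With TRAP1 they were -1.61 for GIMAP4, -1.19 for B3GNT9, 0.791 for B3GNT2, -0.859 for VANGL1, -0.645 for DVL1, 0.534 for RCOR1, -0.900 for SH3TC2, -0.605 for ORAI2, 0.906 for RGS12, -0.224 for NCL, 0.802 for NCOA3 and 0.687 for BRD2.

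With TRAP-1-NegP they were -2.40 for GIMAP2, -1.25 for GIMAP4, -0.896 for B3GNT9, -0.393 for DVL1, 0.598 for RCOR1, -0.732 for RGS12, -0.441 for NCL, 1.04 for NCOA3 and 0.708 for BRD2.

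With JQ1 they were -1.63 for GIMAP4, 1.12 for B3GNT2, -0.898 for B3GNT9, -0.681 for DVL1, 0.803 for RCOR1, -0.591 for ZNF532, -0.892 for SH3TC2, -1.004 for RGS12, -2.80 for LOC728743, 0.952 for NCOA3 and 0.690 for BRD2. GIMAP4, RCOR1, DVL1, B3GNT9, NCOA3 and BRD2 passed with each of the 3 compounds. NCOA3 was called lower at 2 h and higher at 4 h with each.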

How the results depend on the processing

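The direction of the 10 genes with TRAP1, TRAP-1-NegP and JQ1 against DMSO was the same under every alternative run, and no called value of a named gene changed sign. With the replicate number as a block, the members called between compounds at 4 h stayed at 5, 5 and 7 in number, and the genes called for TRAP1 against TRAP-1-NegP at 2 h numbered 109, against 120 without it.

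Fits of only the groups compared, with fewer libraries to estimate the spread, moved most counts. Members called lower with TRAP1 than with TRAP-1-NegP at 4 h numbered 2 (main 5) and those higher with TRAP1 than with JQ1 2 (main 4); GIMAP6 (adjusted p = 0.0729), PRICKLE1, B3GNT7, DOK7, GIMAP8 and, for JQ1 against TRAP-1-NegP, ANKRD65 (0.0784) no longer passed. Members called lower with TRAP-1-NegB numbered 1 at 2 h and 1 at 4 h, lower with MS78 at 4 h 1, higher with MS78 at 2 h 0, and higher in DMSO at 4 h 3. Genes called in all numbered 2695 with TRAP-1-NegB at 2 h (main 1641), 319 with MS78 at 2 h (main 2390), and at 2 h 1112 for TRAP1 against TRAP-1-NegP (main 120), 1036 for TRAP1 against JQ1 (main 298) and 3318 for JQ1 against TRAP-1-NegP (main 1935). Neighbours called higher with TRAP1 at 2 h were 4, lower with JQ1 at 2 h 3 and lower with TRAP-1-NegP at 4 h 2, and relatives lower with TRAP-1-NegP at 2 h 19.

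The DESeq2 Wald test called 234 genes with TRAP-1-NegB at 4 h (main 154), 251 and 555 at 2 h for TRAP1 against TRAP-1-NegP and JQ1, and 2 neighbours lower with JQ1 at 2 h and 2 with TRAP-1-NegP at 4 h. Without a count filter 248 genes were called with TRAP-1-NegB at 4 h, 243 for TRAP1 against TRAP-1-NegP at 2 h, 3 neighbours higher with TRAP-1-NegP at 2 h, and 0 members higher in DMSO at 4 h (B3GNT7, 0.36, adjusted p = 0.0676). The stricter filter called 2 members lower with TRAP1 than with JQ1 at 4 h, B3GNT7 being added. Length-scaled counts gave a median of -2.34 with TRAP-1-NegP at 4 h. The causes were not tested.

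Leaving out 1 library at a time, the members called lower for TRAP1 against TRAP-1-NegP at 4 h ranged from 3 to 6, lower for TRAP1 against JQ1 from 1 to 3, higher from 2 to 5, higher for JQ1 against TRAP-1-NegP from 0 to 1, lower for JQ1 against TRAP-1-NegP at 2 h from 0 to 2, higher with MS78 at 2 h from 0 to 1, and higher in DMSO at 4 h from 0 to 0. The median change of the members ranged from -1.69 to -1.52 with TRAP-1-NegP at 2 h, from -2.47 to -2.35 at 4 h, and from -3.24 to -2.88 with TRAP1 at 4 h. Relatives lower with TRAP1 at 2 h ranged from 9 to 13 and higher with JQ1 at 2 h from 6 to 10. Neighbours lower with TRAP1 at 2 h ranged from 1 to 3, higher with TRAP-1-NegP at 2 h from 2 to 4, and lower at 4 h from 1 to 3. Genes called ranged from 92 to 158 with TRAP-1-NegB at 4 h, from 1352 to 2551 with MS78 at 4 h, and at 2 h from 54 to 79, from 124 to 282 and from 1131 to 1723 for TRAP1 against TRAP-1-NegP, TRAP1 against JQ1 and JQ1 against TRAP-1-NegP.

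Log2 values that passed in neither fit changed sign 69 times in 35 results. Without 1 library at a time, for TRAP1 against DMSO at 2 h they ran from -0.027 to 0.12 for LRWD1, -5.14 to 0.053 for GIMAP1 and -1.13 to 0.20 for GIMAP7, the last 2 near 0 CPM. GIMAP7 with TRAP-1-NegP at 4 h ran from -5.09 to 1.19. For TRAP-1-NegP against DMSO at 2 h they ran from -0.061 to 0.10 for RGS12 and -0.58 to 0.00078 for LOC728743. For JQ1 against DMSO at 2 h they ran from -0.082 to 0.012 for ZNF532. For TRAP-1-NegB against DMSO at 2 h they ran from -0.017 to 0.12 for GIMAP6. For MS78 against DMSO at 2 h they ran from -0.31 to 0.090 for ALKBH4, -0.14 to 0.078 for GIMAP6, -0.070 to 0.12 for ANKRD65 and -0.19 to 0.27 for SH3TC1. For TRAP-1-NegB against DMSO at 4 h they ran from -0.23 to 0.034 for ALKBH4, -0.19 to 0.046 for HCAR1 and -0.091 to 0.086 for GIMAP8. For MS78 against DMSO at 4 h they ran from -0.28 to 0.14 for ANKRD65. For TRAP1 against TRAP-1-NegP at 2 h they ran from -0.11 to 0.37 for HCAR1, -0.31 to 0.16 for GIMAP8 and -0.40 to 0.19 for PRICKLE1. For TRAP1 against JQ1 at 2 h they ran from -0.46 to 0.012 for HCAR1, -0.067 to 0.35 for DOK7, -0.16 to 0.036 for B3GNT7, -0.015 to 0.19 for GIMAP6 and -0.10 to 0.25 for SH3TC1. For JQ1 against TRAP-1-NegP at 2 h they ran from -0.075 to 0.12 for GIMAP6. For TRAP1 against TRAP-1-NegP at 4 h they ran from -0.51 to 0.34 for GIMAP8 and -0.40 to 0.45 for SH3TC1. For TRAP1 against JQ1 at 4 h they ran from -0.18 to 0.17 for GIMAP6 and -0.34 to 0.51 for SH3TC1. For JQ1 against TRAP-1-NegP at 4 h they ran from -0.21 to 0.073 for B3GNT7 and -0.49 to 0.25 for SH3TC1. For DMSO at 4 h against 2 h they ran from -0.22 to 0.16 for DOK7, -0.019 to 0.19 for GIMAP8, -0.055 to 0.20 for PRICKLE1 and -0.063 to 0.039 for ZMYND8. Other settings also turned such values: length-scaled counts gave -0.028 for RGS12 with TRAP-1-NegP at 2 h, 0.018 for GIMAP6 between TRAP1 and JQ1 at 4 h, 0.0076 for SH3TC1 between JQ1 and TRAP-1-NegP at 4 h and 0.069 for DOK7 in DMSO over time, which was 0.014 with the replicate block. GIMAP6 with MS78 at 2 h was -0.0045 with no count filter and -0.0034 with only the groups compared, and ZMYND8 in DMSO over time -0.013 with no count filter.

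Members at under 1 CPM after treatment rest on few reads, so their fold changes and the differences between compounds are the least precise.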
